A study of Mus musculus with 13 samples.

Results

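The Slc22 genes encode organic ion transporters of the plasma membrane, and 9 of them (Slc22a3, Slc22a5, Slc22a7, Slc22a8 and the rodent cluster Slc22a26 to Slc22a30) were followed in the liver of STZ-treated mice. The 9 genes were chosen by a proposal made with STZ and control differences of these data known, and probe sets were selected on mean signal alone. A gene was read from a probe set annotated to that 1 symbol, and the brightest probe set on average over the 13 arrays was to be kept where a gene had several. By this rule 7 of the 9 genes were measured, among 19938 named genes in all, and each of the 7 had 1 probe set, so the choice by brightness selected nothing. Slc22a3 and Slc22a28 have no probe set annotated to them alone and were not analysed here. The STZ group was 6 male C57BL/6N wildtype mice that had received streptozotocin, a DNA-alkylating glucose analogue that kills insulin-producing beta cells, intraperitoneally at 65 mg/kg on each of 5 days in a row. The control group was 7 male C57BL/6N wildtype mice injected with citrate buffer, while the design text describes the controls by a standard diet. Injections began at 10 to 16 weeks of age, the animals were killed after a further 9 to 11 weeks, and their age is given as 5 to 6 months. Each array holds 1 liver, labelled a biological replicate.

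Slc22 proteins fall by substrate into organic cation transporters, carnitine and zwitterion transporters, and organic anion transporters. Organic anion transporters of hepatocytes and kidney tubules bring drugs, steroid conjugates, nucleotides and metabolites into the cell, many of them in exchange for intracellular dicarboxylates. Slc22a5 (OCTN2) carries carnitine with sodium, Slc22a7 (OAT2) and Slc22a8 (OAT3) are organic anion transporters best known from liver and kidney, and Slc22a3 (OCT3) carries monoamines and other cations. The genes from Slc22a26 to Slc22a30 form a rodent branch of the anion transporters whose substrates are less well defined.

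In the RefSeq mouse annotation the protein-coding genes Slc22a19, Slc22a26, Slc22a27, Slc22a28, Slc22a29, Slc22a30, Slc22a8 and Slc22a6 follow each other in this order on chromosome 19. The promoter windows of the 5 rodent cluster genes are shown because neighbours in this row differed in opposite directions between STZ and control livers. Each window of 300 bases spans the RefSeq start and lies mostly before it, is written 5′ to 3′ on the minus strand of GRCm38.p6, and was taken from RefSeq. They lie at chr19:7802618-7802917 (Slc22a26), chr19:7965978-7966277 (Slc22a27), chr19:8131933-8132232 (Slc22a28), chr19:8218851-8219150 (Slc22a29) and chr19:8405056-8405355 (Slc22a30). Capitals mark matches to the motifs searched.
Slc22a26: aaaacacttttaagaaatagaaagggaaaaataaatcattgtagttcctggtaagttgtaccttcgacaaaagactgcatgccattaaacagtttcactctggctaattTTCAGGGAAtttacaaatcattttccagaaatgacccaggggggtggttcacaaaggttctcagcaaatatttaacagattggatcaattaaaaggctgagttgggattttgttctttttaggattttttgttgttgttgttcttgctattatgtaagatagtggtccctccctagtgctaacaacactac
Slc22a27: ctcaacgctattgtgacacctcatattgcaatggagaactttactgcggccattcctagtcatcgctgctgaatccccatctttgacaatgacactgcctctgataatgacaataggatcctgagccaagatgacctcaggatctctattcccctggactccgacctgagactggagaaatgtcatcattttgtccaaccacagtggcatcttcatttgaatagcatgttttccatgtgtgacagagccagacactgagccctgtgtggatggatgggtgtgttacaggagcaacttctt
Slc22a28: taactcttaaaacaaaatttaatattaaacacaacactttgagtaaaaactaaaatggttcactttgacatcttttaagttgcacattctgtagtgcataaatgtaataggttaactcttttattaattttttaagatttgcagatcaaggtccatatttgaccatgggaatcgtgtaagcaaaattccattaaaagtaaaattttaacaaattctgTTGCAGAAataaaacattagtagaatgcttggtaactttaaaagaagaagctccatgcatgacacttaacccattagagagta
Slc22a29: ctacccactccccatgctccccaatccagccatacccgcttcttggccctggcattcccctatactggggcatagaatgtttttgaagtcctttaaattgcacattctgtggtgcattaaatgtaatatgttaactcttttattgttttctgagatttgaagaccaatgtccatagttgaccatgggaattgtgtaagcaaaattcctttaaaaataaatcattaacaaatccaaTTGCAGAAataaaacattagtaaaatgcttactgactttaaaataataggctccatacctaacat
Slc22a30: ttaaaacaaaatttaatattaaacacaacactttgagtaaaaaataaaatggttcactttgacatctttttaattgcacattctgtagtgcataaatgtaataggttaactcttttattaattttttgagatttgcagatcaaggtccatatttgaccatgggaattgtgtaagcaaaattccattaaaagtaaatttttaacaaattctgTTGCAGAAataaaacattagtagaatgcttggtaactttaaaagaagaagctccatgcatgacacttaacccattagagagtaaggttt

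The windows of Slc22a28 and Slc22a30 are nearly the same sequence, with 288 of 294 aligned bases identical (98.0%). The window of Slc22a29 matches that of Slc22a28 at 213 of 263 aligned bases (81.0%) and that of Slc22a30 at 210 of 257 (81.7%). On both strands 6 motifs were searched in the windows of the 8 genes with an entry, which leaves out Slc22a7. The STAT motif TTCNNNGAA occurred in the window of Slc22a26, with its first base at -141 from the start, and in none of the other 7 windows. It is held by 8.30% of all 32851 promoter windows of the table. The C/EBP motif TTGCNNAA occurred in the windows of Slc22a28 (first base at -33), Slc22a29 (-15) and Slc22a30 (-39) and is held by 10.8% of all windows. The forkhead motif GTAAACA (3.65% of all windows), the direct repeat 1 motif of nuclear receptors (0.0396%), the HNF4 motif CAAAGTCCA (0.475%) and the HNF1 motif (0.00913%) had no match in the 8 windows. The matches do not overlap each other, and a match describes letters and not binding.

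The values are log2 intensities after robust multi-array average (RMA), a background correction, normalization and probe summary that brings all arrays to a common scale. The medians of the 13 arrays lay between 6.22 and 6.31 and their lower quartiles between 4.87 and 4.99. Precision is set by the 13 arrays. No detection calls were used, so a value near the lower quartile means a dim probe set and does not show absence. STZ replicate 5 stood nearest to the controls, with a mean correlation of 0.993 with the 7 control arrays across all named genes, against 0.983 to 0.990 for the other STZ arrays. These correlations are across genes, which are not independent replicates. Results that rest on this array are given with and without it. The array was picked for its likeness to the controls. Larger differences and smaller p-values without it are favoured by that choice and add no support.

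Of the 7 measured transporters, Slc22a26 and Slc22a27 rose in STZ livers, Slc22a30 fell, and Slc22a5, Slc22a7, Slc22a8 and Slc22a29 did not pass the test. The test was limma's moderated test over all 19938 genes with an adjusted p under 0.05, and 9.12% of all genes passed it, 5.09% higher and 4.04% lower in STZ livers. The median difference of the 7 was 0.05 on the log2 scale, against -0.01 over all genes. The genes were picked with earlier results of these data known, so their count describes them and carries no weight as evidence. The 2 groups had no overlap in 3.86% of all genes, 2.3% higher and 1.56% lower in STZ livers.

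**Figure D1:**
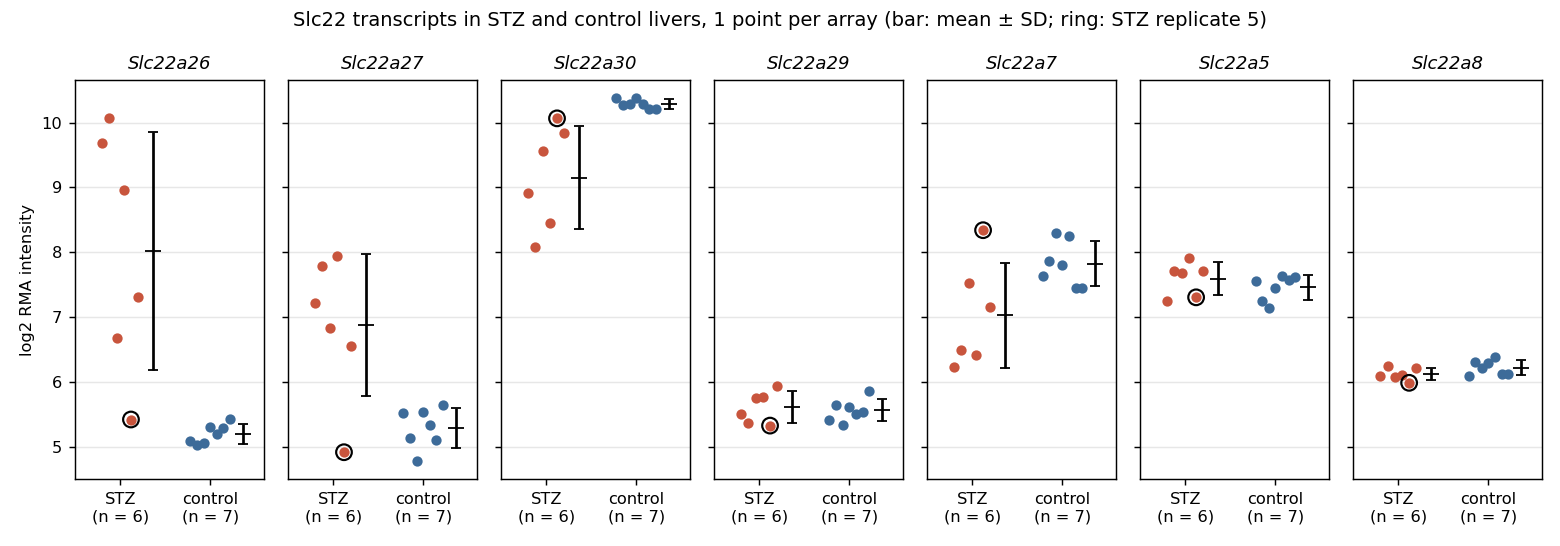
Log2 RMA intensity (vertical axis) of the 7 measured Slc22 transporters in 6 STZ and 7 control livers, 1 point per array, with mean ± SD beside the points and a ring around STZ replicate 5. In STZ livers Slc22a26 spreads from 5.43 to 10.06 while the controls sit between 5.03 and 5.44, and Slc22a30 lies below all controls.

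Slc22a26 (Entrez gene 236149), a rodent organic anion transporter gene, showed the largest difference of the 7. Its lowest, median and highest log2 values were 5.43, 8.14 and 10.06 in STZ livers, against 5.03, 5.20 and 5.44 in control livers. In 5 of 6 STZ arrays it lay above all controls, and in STZ replicate 5 it lay just under the highest control, so the groups overlapped in 1 array. The mean was 8.02 ± 1.84 in STZ livers (SD, n = 6) and 5.20 ± 0.15 in control livers (SD, n = 7). The difference was 2.82 ± 0.57 (SE of the fit, as for all differences), or 7.05-fold as a ratio of RMA intensities, with an adjusted p of 0.00454 in limma. The adjusted p was nearer the threshold in limma with trend and robust variance (0.0252) and in the exact rank-sum test (0.0427). Without STZ replicate 5 the difference was 3.34, with an adjusted p of 0.000123 in limma.

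Slc22a27 (Entrez gene 171405), the next coding gene in the row and listed by RefSeq under the synonym Oat9, differed in the same direction. Its log2 values were 4.92, 7.03 and 7.94 (lowest, median, highest) in STZ livers, against 4.78, 5.34 and 5.64 in control livers. Again 5 of 6 STZ arrays lay above all controls, and STZ replicate 5 lay within the control range. The difference was 1.58 ± 0.36, or 3.00-fold as a ratio of RMA intensities, with an adjusted p of 0.00914 in limma. The adjusted p was 0.0394 in limma with trend and robust variance. In the exact rank-sum test it was 0.211, and Slc22a27 did not pass. Without STZ replicate 5 the difference was 1.97, with an adjusted p of 1.7e-05 in limma. In control livers both genes lay below the array medians, Slc22a27 in 1 control also below the lower quartile, and whether such dim signal makes these folds too small was not tested.

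Slc22a30 (Entrez gene 319800), 3 coding genes further along, was bright in control livers and fell in STZ livers. Its log2 values were 8.08, 9.24 and 10.06 (lowest, median, highest) in STZ livers, against 10.20, 10.28 and 10.38 in control livers. All 6 STZ arrays lay below all 7 controls, a separation that 1.56% of all genes showed in this direction. The difference was -1.13 ± 0.25, a 2.19-fold fall, with an adjusted p of 0.00790 in limma, and without STZ replicate 5 it was -1.32 (adjusted p = 0.00101 in limma). With all arrays the adjusted p was nearer the threshold in limma with trend and robust variance (0.0340) and in the exact rank-sum test (0.0302).

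Slc22a29 (Entrez gene 236293), which lies between Slc22a28 and Slc22a30, gave a low signal in both groups. Its log2 values ran from 5.33 to 5.94 in STZ livers and from 5.34 to 5.86 in control livers, with 1 STZ array above and 1 below all controls and the other 4 within the control range. The difference of 0.05 ± 0.10 did not pass (adjusted p = 0.853 in limma), and its 95% confidence interval was -0.16 to 0.27. A further probe set of the row is annotated to Slc22a28, Slc22a29 and Slc22a30 together and so names no single gene. Its difference was -1.20 ± 0.26, in a fit over all probe sets that called 4.6% of them, 2.02% as lower. Close paralogs can share probes, and how far each transcript contributes to the probe sets of this row was not tested.

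The spread among STZ livers was far wider than among controls for the transporters that passed. The limma fit takes 1 variance per gene for both groups. How far this unequal spread makes its SE, confidence intervals and p-values too small was not tested. The SD of Slc22a26 was 1.84 in STZ livers and 0.15 in control livers, that of Slc22a27 was 1.10 in STZ livers and 0.30 in control livers, and that of Slc22a30 was 0.79 in STZ livers and 0.07 in control livers. STZ replicate 2 departed furthest from the control mean for both Slc22a26 (by 4.86) and Slc22a30 (by -2.21). STZ replicate 4 departed furthest for Slc22a27 (by 2.65), with Slc22a26 at 3.76 and Slc22a30 at -1.83 from the control mean. STZ replicate 1 had Slc22a26 at 4.48, Slc22a27 at 1.93 and Slc22a30 at -1.37. These 3 livers held the 3 highest values of Slc22a26 and Slc22a27 and the 3 lowest of Slc22a30 among the STZ arrays.

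The other 3 STZ livers departed less. STZ replicate 3 had Slc22a26 at 1.47, Slc22a27 at 1.54 and Slc22a30 at -0.72 from the control mean, and STZ replicate 6 had 2.12, 1.27 and -0.45 for the same genes. STZ replicate 5 had 0.22, -0.37 and -0.22, the nearest to the control mean for each of them. The labels number the STZ animals 29, 30, 31, 32, 40 and 42. With the 4 consecutively numbered animals alone the differences were 3.64 for Slc22a26, 2.15 for Slc22a27 and -1.53 for Slc22a30. This choice leaves out STZ replicates 5 and 6, which departed less, so larger differences are favoured by it. The control animals are numbered 1 to 7. No batch is labelled, and a batch that separated the control numbers from the STZ numbers cannot be told apart from the treatment.

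**Figure D2:**
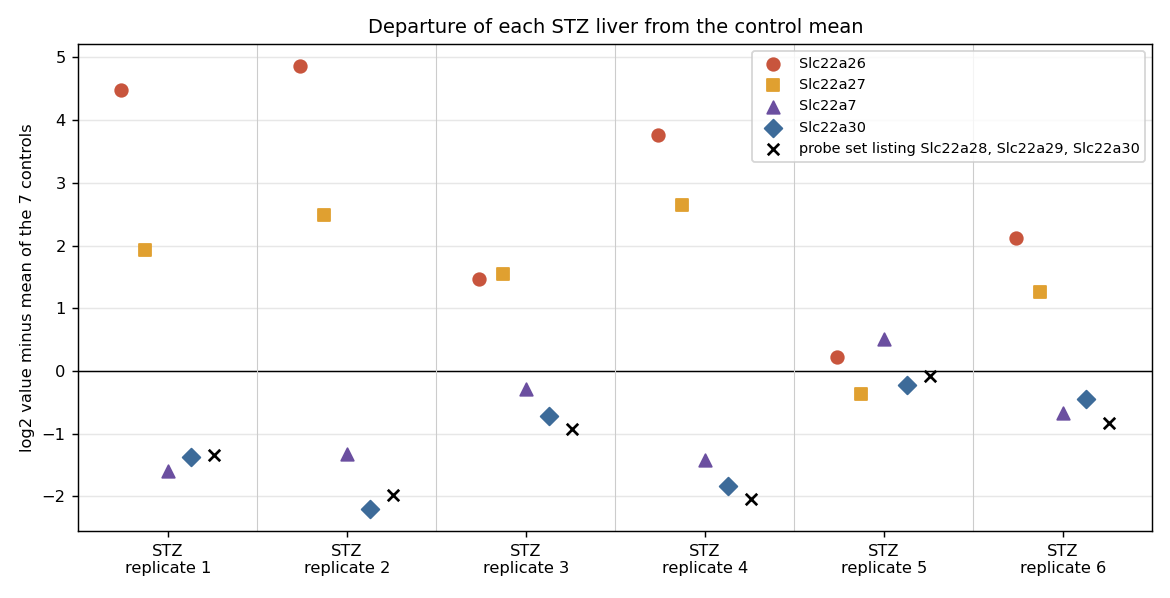
Log2 value minus the mean of the 7 controls (vertical axis) in each of the 6 STZ livers (horizontal axis) for Slc22a26, Slc22a27, Slc22a7, Slc22a30 and the probe set annotated to 3 cluster genes. STZ replicates 1, 2 and 4 lie far from 0 in both directions, and STZ replicate 5 stays between -0.37 and 0.52.

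Slc22a7 (Entrez gene 108114), known in human liver as the anion transporter OAT2, was lower in most STZ livers without passing the test. Its log2 values were 6.24, 6.83 and 8.34 (lowest, median, highest) in STZ livers, against 7.46, 7.80 and 8.29 in control livers. In 4 of 6 STZ arrays it lay below all controls, while STZ replicate 5 held the highest value of all 13 arrays. The difference was -0.80 ± 0.28, with an adjusted p of 0.0927 in limma and a 95% confidence interval of -1.39 to -0.21. Without STZ replicate 5 it was -1.06 and passed (adjusted p = 0.00346 in limma). With the 4 consecutively numbered STZ animals, which also leaves out STZ replicate 5, it was -1.16 (adjusted p = 0.00312 in limma). Of 21 alternatives 18 did not call Slc22a7, among them the exact rank-sum test (adjusted p = 0.378). Of the 13 fits that left out 1 array, 1 called it, and the highest adjusted p was 0.207 in limma.

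Slc22a8 (Entrez gene 19879), the anion transporter OAT3 of the basolateral membrane of kidney tubules, had a signal near the array median. Its log2 values ran from 5.99 to 6.25 in STZ livers and from 6.10 to 6.39 in control livers. The groups overlapped, and the difference of -0.10 ± 0.06 did not pass (adjusted p = 0.398 in limma). The neighbouring kidney transporter gene Slc22a6 (OAT1) averaged 5.92 ± 0.09 in STZ livers and 5.87 ± 0.12 in control livers (SD, n = 6 and n = 7), also without passing, and is named here for its position.

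Slc22a5 (Entrez gene 20520), the sodium-dependent carnitine transporter, showed no change that passed. Its log2 values were 7.25, 7.70 and 7.91 (lowest, median, highest) in STZ livers, against 7.14, 7.57 and 7.64 in control livers. In 4 of 6 STZ arrays it lay above the highest control, and in the others within the control range. The difference was 0.13 ± 0.11, with an adjusted p of 0.568 in limma and a 95% confidence interval of -0.10 to 0.37. Its chromosome 11 neighbours Slc22a21, a carnitine transporter of the mouse, and Slc22a4, a carrier of ergothioneine, differed by 0.08 ± 0.07 and 0.03 ± 0.08 and did not pass either. Its promoter window is unlike those of the rodent cluster in base composition, with 72.7% G and C against 27.7% to 47.0% in the 5 windows shown.

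Around Slc22a5, 11 of 12 genes of carnitine synthesis, use and transport were measured. Of these, 3 fell and 0 rose in limma (4.04% and 5.09% of all genes), with a median difference of -0.09. Without adjustment 4 had a limma p under 0.05, as had 4156 of all 19938 genes. The exact rank-sum test called 1 at an adjusted p under 0.05, and 1088 of all 19938 genes. Bbox1, the last enzyme of carnitine synthesis, averaged 11.12 ± 0.15 in STZ livers and 11.35 ± 0.05 in control livers and fell by 0.23 on the log2 scale (adjusted p = 0.0236 in limma). Slc25a20, the carnitine-acylcarnitine carrier of the inner mitochondrial membrane, averaged 10.44 ± 0.12 in STZ livers and 10.75 ± 0.19 in control livers (difference -0.31 ± 0.08). Shmt1, a serine hydroxymethyltransferase of the cytosol, had a difference of -0.22 ± 0.07 and lay near the threshold (adjusted p = 0.0477 in limma). The count of 3 was 0 without control replicate 1. It was 1 without STZ replicate 1 or 6, or without control replicate 4, 5 or 7.

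Most other genes of the Slc22 family did not pass the test. Of 16 of them 15 were measured, of which 1 rose and 1 fell in limma (5.09% and 4.04% of all genes), with a median difference of -0.01. Slc22a18, an imprinted gene of the family, had log2 values of 11.12, 11.33 and 11.43 (lowest, median, highest) in STZ livers, against 10.68, 10.91 and 11.01 in control livers. All 6 STZ arrays lay above all controls, and the rise was 0.44 ± 0.07 (adjusted p = 0.000495 in limma). Slc22a23, a member without an established substrate, averaged 9.89 ± 0.10 in STZ livers and 10.13 ± 0.10 in control livers and fell by 0.24 on the log2 scale (adjusted p = 0.0177 in limma). It did not pass in the exact rank-sum test (adjusted p = 0.0628). The other 13 differed by -0.17 to 0.08. Outside the rodent cluster the furthest measured family gene from 0 was Slc22a7 (-0.80).

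**Figure D3:**
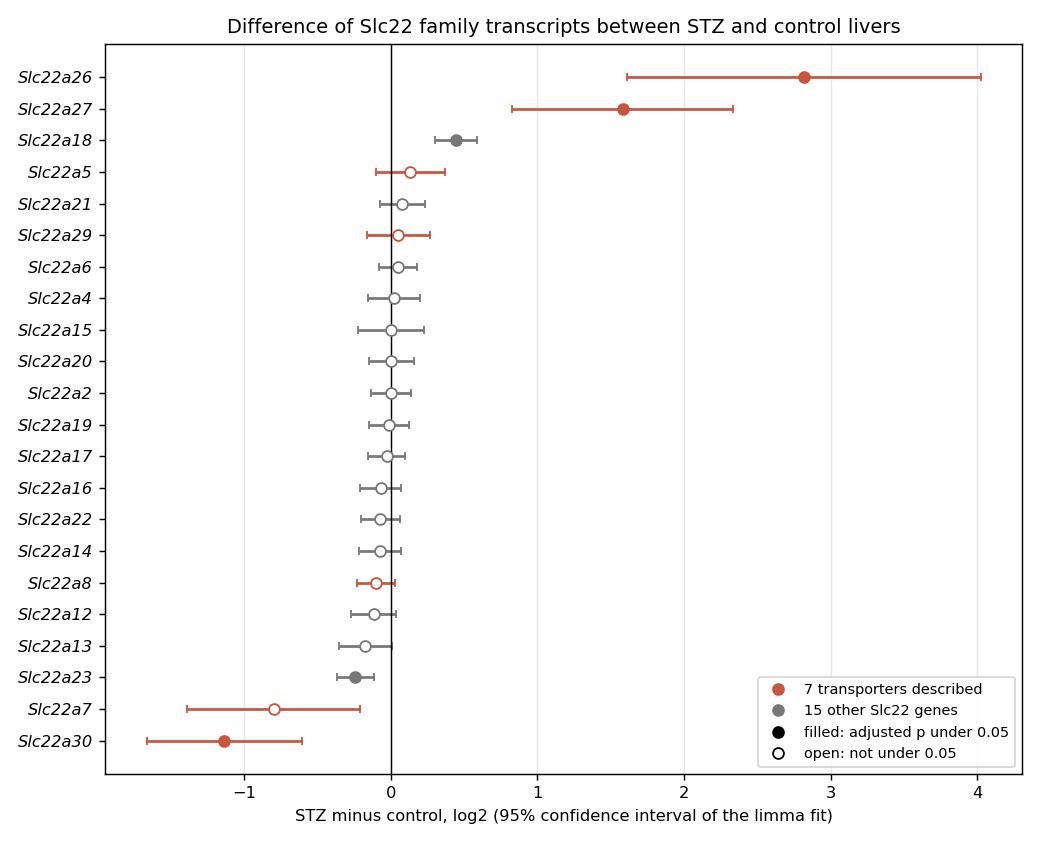
STZ minus control difference on the log2 scale (horizontal axis, with 95% confidence intervals of the limma fit) for all measured Slc22 genes, with the 7 transporters described in red and the 15 others in grey, and filled points for an adjusted p under 0.05. The points of Slc22a26 (2.82), Slc22a27 (1.58) and Slc22a30 (-1.13) stand outside the range of the other family genes.

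Transcription factors known for a part in liver transporter genes or in sex-biased liver genes were read next, of which 17 of 18 were measured. Of these, 3 rose and 4 fell in limma (5.09% and 4.04% of all genes), with a median difference of 0.06. Cux2, a factor found mainly in female mouse liver, averaged 7.31 ± 0.58 in STZ livers and 6.65 ± 0.15 in control livers (SD, n = 6 and n = 7). It rose by 0.66 ± 0.19 (adjusted p = 0.0368 in limma), with its lowest STZ value in replicate 5. It did not pass without STZ replicate 1, 2 or 4 or without any single control. Bcl6, a repressor that is higher in male mouse liver, had 6.34, 6.83 and 7.15 in STZ livers, against 6.82, 8.02 and 9.57 in control livers. Its fall of 1.37 ± 0.33 was the largest of the list (adjusted p = 0.0141 in limma, 0.0874 in the exact rank-sum test), and here the controls were the more variable group.

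Ppara, the fatty acid-sensing nuclear receptor, averaged 10.11 ± 0.18 in STZ livers and 10.90 ± 0.17 in control livers and fell by 0.79 on the log2 scale (adjusted p = 3.90e-05 in limma). Cebpa, a C/EBP factor of mature hepatocytes, averaged 9.71 ± 0.31 in STZ livers and 10.29 ± 0.07 in control livers and fell by 0.58. The bile acid receptor Nr1h4 had a difference of -0.39 ± 0.09. The xenobiotic sensor Ahr and Nfe2l2, a transcription factor of the oxidant response, rose by 0.53 and 0.32 on the log2 scale. Hnf4a, a main regulator of hepatic transporters, was 0.15 ± 0.06, and Stat5b, which carries the growth hormone signal, was 0.20 ± 0.09, and neither passed over all genes (these 2 were picked after their values were seen). Foxa1, also picked after its values were seen, went the other way (-0.34 ± 0.12) and did not pass (adjusted p = 0.0800 in limma).

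Other carriers and scaffold proteins of the hepatocyte membrane went both ways, with 3 of 13 measured genes higher, 3 lower (of which Pdzk1 is a scaffold) and a median difference of -0.11. Of all genes, limma called 5.09% higher and 4.04% lower. The efflux pump gene Abcc4 had log2 values of 7.01, 7.98 and 8.66 (lowest, median, highest) in STZ livers, against 6.62, 6.92 and 7.09 in control livers. It rose by 1.11 ± 0.20 (adjusted p = 0.00204 in limma, 0.0628 in the exact rank-sum test) and lay above all controls in each STZ array but replicate 5. The efflux pump genes Abcb1a (0.75 ± 0.16) and Abcc3 (0.31 ± 0.06) also rose. Abcb1b, a dim gene of the same list picked after its values were seen, went the other way (-0.19 ± 0.06). All 6 STZ arrays lay below all controls for Abcb1b, but it did not pass in limma (adjusted p = 0.0666). Abcb1b passed under 2 alternatives, the rank-sum test and median centring. Pdzk1, a scaffold protein that holds transporters at the membrane, had 6.92, 7.18 and 7.64 in STZ livers, against 7.47, 7.85 and 8.05 in control livers, a difference of -0.62 ± 0.11. The efflux pump gene Abcg2 (-0.51 ± 0.15) and the anion uptake transporter gene Slco1b2 (-0.31 ± 0.09) fell with adjusted p of 0.0356 and 0.0413 in limma, and kept their calls in 4 and 3 of the 13 fits that left out 1 array.

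**Figure D4:**
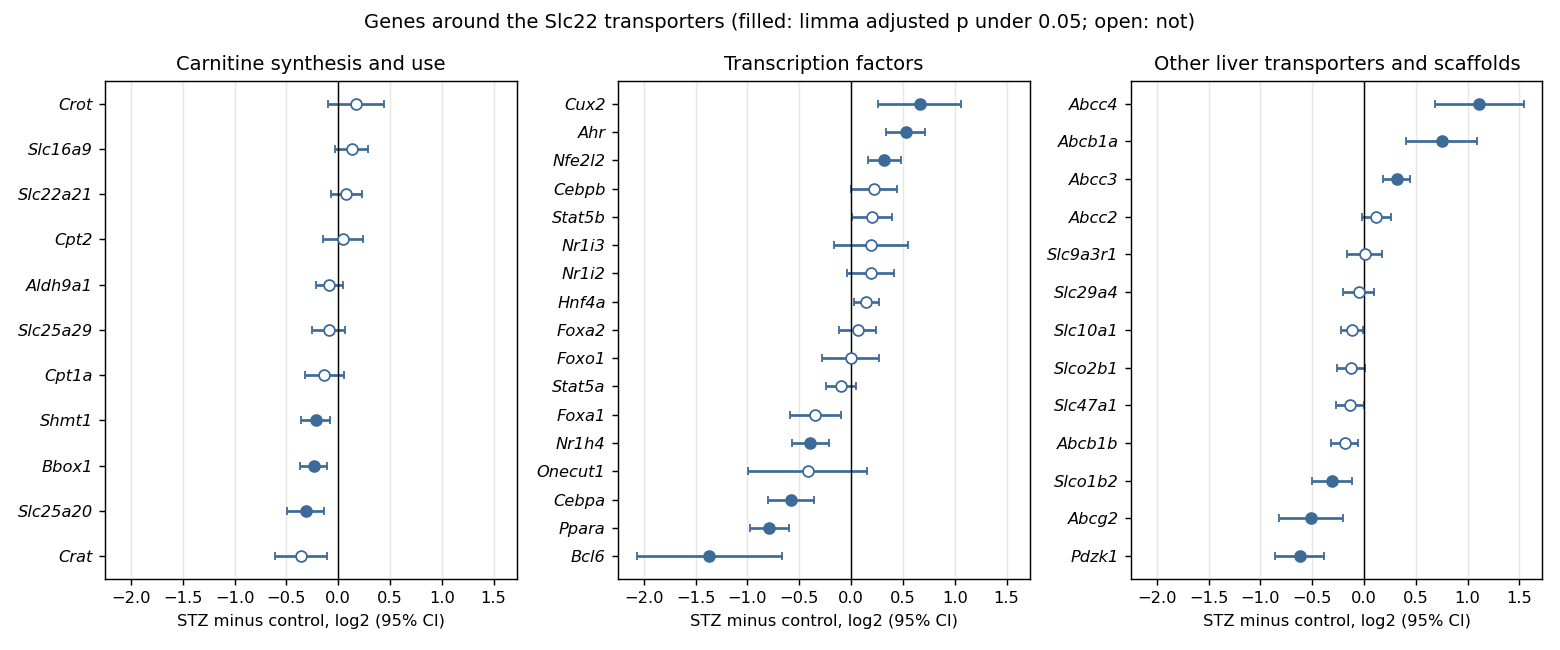
STZ minus control difference on the log2 scale (horizontal axes, with 95% confidence intervals of the limma fit) for the measured genes of carnitine synthesis and use, for transcription factors, and for other transporters and scaffolds of the liver, with filled points for an adjusted p under 0.05. Abcc4 (1.11) and Bcl6 (-1.37) lie furthest from 0.

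The genes whose profiles over the 13 arrays lay nearest to the 3 that passed were found by the root mean square distance after each gene's control mean was subtracted. Mt1, a metallothionein, and Igfbp1, an IGF-binding protein that insulin represses, lay nearest to Slc22a26, at distances of 0.71 and 0.86 log2 units. Fmo2, a flavin monooxygenase, and Vldlr, a lipoprotein receptor, lay nearest to Slc22a27, at 0.39 and 0.41. Fabp1, the liver fatty acid-binding protein, and Inhbc, an activin subunit, lay nearest to Slc22a30, at 0.15 and 0.18. Fabp1 had log2 values of 10.52, 11.71 and 12.53 (lowest, median, highest) in STZ livers, against 12.79, 12.87 and 12.94 in control livers. STZ replicate 2 was lowest and STZ replicate 5 highest of the STZ arrays, as for Slc22a30. Fabp1 was picked for nearness over these same arrays, so a shared order is favoured by the search. The nearest genes are a description, and no test was made of them.

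Markers of cell types were read beside these results. Among all 19938 genes, 4156 had an unadjusted p under 0.05 in limma, the background for such counts below. At an adjusted p under 0.05, limma called 5.09% of all genes higher and 4.04% lower, and the exact rank-sum test called 1088 genes. The 7 measured hepatocyte markers had mean log2 values of 12.9 to 13.7, with 1 higher (Cps1) and 2 lower (Apoa1 and Ttr) in STZ livers. Of 8 macrophage markers 4 rose, namely Cd68, Clec4f, Vsig4 and Cd5l. The summed linear intensity of all 8 was 4677 to 7621 in STZ livers and 4221 to 5592 in control livers. At an adjusted p under 0.05 the exact rank-sum test called 0 of these 8, against 4 in limma. Without adjustment 7 had a limma p under 0.05. Of 6 endothelial markers 1 rose (Lyve1), with sums of 4614 to 5146 in STZ livers and 4479 to 4859 in control livers, and of 7 stellate markers 1 fell (Lrat), with sums of 1709 to 2339 in STZ livers and 1953 to 2354 in control livers. Of the 9 kidney tubule markers, 2 of them Slc22 genes, limma called 0, with 0 at an unadjusted p under 0.05 and 0 by the exact rank-sum test, and their sums were 502 to 575 in STZ livers and 543 to 697 in control livers. Of 4 bile duct, 5 lymphocyte, 3 adipocyte and 5 pancreas markers limma and the exact rank-sum test called 0, with 1, 0, 1 and 2 at an unadjusted p under 0.05 in limma. RMA values hold no 0, so no marker was at 0. In whole liver, fewer cells of a type and less RNA per cell cannot be told apart, and the part of cell composition in the transporter differences was not tested.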

How the data were processed

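Liver RNA of 6 STZ and 7 control mice was read from 1 deposited table of log2 intensities, 35556 probe sets by 13 arrays. Per the submitters' processing notes, the log2 values come from RMA, and Affymetrix Expression Console 1.2 is named as software. For the genome build, the sources used here give none. The platform annotation gave 1 symbol to 21789 probe sets, several to 1621 and none to 12146, and the brightest probe set per gene left 19938 genes without a filter on dim genes. Symbols of all 7 measured transporters matched RefSeq by Entrez identifier.

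STZ and control were compared with limma 3.58.1 in R 4.3.3 (lmFit and eBayes, 2-sided, 11 residual degrees of freedom, Benjamini-Hochberg over all 19938 genes, threshold 0.05). The procedure was also run on simulated data. These gave both groups the same SD per gene, so the run does not cover the unequal spread of the transporters that passed. Alternatives were other variance moderation, a brightness filter, adjustment over all probe sets, probe set averaging, median centring, an exact rank-sum test, a block on replicate number, fewer STZ arrays and leaving out each array. All 7 measured transporters were named, with the genes that passed among the other Slc22, carnitine, transcription factor and partner lists and the 2 nearest profiles of each transporter that passed, and genes named for position or after their values were seen are marked. The transporters and lists were chosen with earlier results of these data known. The p-values measure the spread between the labelled biological replicates.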

Additional observations from a re-analysis of the deposited data

Results flagged for a closer look

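The probe set annotated jointly to Slc22a28, Slc22a29 and Slc22a30 names no single gene and entered no comparison of single genes, yet it differed between the groups. Its log2 values were 9.06, 8.42, 9.48, 8.36, 10.32 and 9.58 in STZ replicates 1 to 6, against 10.19 to 10.61 in control livers. In 5 of 6 STZ arrays it lay below all controls, and STZ replicate 5 lay within the control range. The mean was 9.20 ± 0.75 in STZ livers (SD, n = 6) and 10.40 ± 0.14 in control livers (SD, n = 7). The difference was -1.20 ± 0.26 (SE), with an adjusted p of 0.0157 over all 35556 probe sets in limma, where 2.02% of probe sets were lower in STZ livers. Which of the 3 transcripts it reports was not tested. The lowest and highest values of each of the 7 transporters in each group were also compared with their neighbours by Dixon's criterion, and 0 of 14 groups held an outlying array.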

How the results depend on the processing

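Over 21 alternatives, 13 of which left out 1 array, Slc22a30 kept its direction and its call in all, and Slc22a26 in all 20 that measured it. Slc22a27 lost its call in the exact rank-sum test. Slc22a26 ranged from 2.41 to 3.34, Slc22a27 from 1.37 to 1.97 and Slc22a30 from -1.32 to -0.92 over the fits without 1 array. Slc22a7 gained a call in 3 alternatives, and Slc22a29 ranged from -0.0137 (without STZ replicate 6) to 0.109 without 1 array. Among genes brighter than the median gene 3 of the 7 transporters were left and 1 was called, because Slc22a26 and Slc22a27 are dimmer. The exact rank-sum test called 1088 genes in place of 1819, 1 other Slc22 gene in place of 2, 1 carnitine gene in place of 3 and 4 regulators in place of 7, and adjustment over all probe sets called 1 carnitine gene. The cause was not tested. Without 1 array the counts were 1399 to 2168 genes, 3 to 4 transporters, 0 to 3 carnitine genes, 6 to 8 regulators and 4 to 6 partner transporters, and the other Slc22 count stayed at 2. The labels give no pairing of same-numbered STZ and control arrays, and their deviations correlated at -0.09 to 0.19 over 6 pairs. These values cannot settle whether such arrays were handled together. With the replicate block 1 other Slc22 gene and 0 carnitine genes were called, and Slc22a7 passed (adjusted p = 0.0225 in limma). Slc22a26 and Slc22a27 in controls and Slc22a29 in both groups lay below the array medians, and what this does to the sizes was not tested.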
